A study of Mus musculus with 8 samples.

Results

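The nuclear genes of respiratory complexes II to V and of cytochrome c were described in the small RNA of mouse sperm. The 50 genes were taken by name from the exon features of the deposited table, which carries 21685 exon gene names. The names taken were Sdha, Sdhb, Sdhc, Sdhd, Cyc1, Cycs and Cyct, and all that begin with Uqcr, Cox4, Cox5, Cox6, Cox7, Cox8 or Atp5. They comprised 4 genes of complex II, 9 of complex III, 2 of cytochrome c, 18 named for complex IV and 17 named for complex V. Of these, 42 were treated as somatic or widely expressed forms, 4 as testis forms (Cox6b2, Cox7b2, Cox8c and Cyct) and 4 as heart or lung forms (Cox4i2, Cox6a2, Cox7a1 and Cox8b). Atp5s and Atp5sl are now named Dmac2l and Dmac2 by RefSeq, so their old names do not make them subunits of the ATP synthase, and Cox7a2l is known as a factor of respiratory supercomplexes. They were kept because the choice was by name.

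The study compared sperm of 4 ethanol samples with sperm of 4 control samples, in a series on noncoding RNA after alcohol intake had ended. The labels give the treatment (ethanol or control), the tissue (sperm) and the species, and no strain, age, dose or duration is stated in them. Separate animals are not named as the source of the samples of either group, and the p-values therefore reflect sample-to-sample spread only, which may be technical. Libraries were prepared for small RNA from total RNA, so a count here is a short fragment assigned to an exon, not a whole mRNA.

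Complex II (succinate dehydrogenase) and complex III (the cytochrome bc1 complex) pass electrons towards oxygen, cytochrome c carries them from complex III to complex IV (cytochrome c oxidase), and complex V (the ATP synthase) uses the resulting proton gradient to make ATP. All subunits of complex II and most subunits of the other complexes are encoded in the nucleus, and a few subunits of complexes III, IV and V are encoded in the mitochondrial genome. In the male germ line, some subunits of complex IV and cytochrome c itself exist as testis forms encoded by separate genes, and in the sperm cell the mitochondria are wrapped around the midpiece of the tail. Promoters of such nuclear genes are known for binding NRF1, factors of the ETS family and CREB.

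Promoters are shown for Atp5h, the gene with the largest fold change, and for 2 somatic genes beside their testis forms, Cycs with Cyct and Cox6b1 with Cox6b2. Each sequence is the 250 bases before the RefSeq start on GRCm38.p6, read 5′ to 3′ on the transcribed strand. Capitals mark a match to the NRF1 motif (GCGCA, any base, GCGC), the ETS motif CCGGAAG, which reads CTTCCGG on the other strand, or the CRE motif TGACGTCA, all searched on both strands; no motif overlaps another in these promoters. The Atp5h promoter (chr11:115419920-115420169, minus strand) holds 1 NRF1 and 1 ETS match, Cycs (chr6:50566570-50566819, minus strand) holds 1 CRE match and Cox6b1 (chr7:30626115-30626364, minus strand) holds 1 ETS match. Those of Cyct (chr2:76360454-76360703, minus strand) and Cox6b2 (chr7:4753095-4753344, minus strand) hold none of the 3 motifs.
Atp5h: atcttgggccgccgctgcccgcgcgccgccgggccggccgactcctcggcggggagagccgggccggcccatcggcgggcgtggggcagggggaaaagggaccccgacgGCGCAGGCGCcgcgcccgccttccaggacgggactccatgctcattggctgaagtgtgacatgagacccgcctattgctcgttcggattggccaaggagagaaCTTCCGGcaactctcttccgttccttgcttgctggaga
Cycs: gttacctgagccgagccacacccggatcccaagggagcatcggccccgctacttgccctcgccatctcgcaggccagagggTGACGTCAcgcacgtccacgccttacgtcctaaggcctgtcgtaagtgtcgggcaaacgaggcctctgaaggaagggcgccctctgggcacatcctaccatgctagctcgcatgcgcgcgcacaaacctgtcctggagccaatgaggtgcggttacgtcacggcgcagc
Cyct: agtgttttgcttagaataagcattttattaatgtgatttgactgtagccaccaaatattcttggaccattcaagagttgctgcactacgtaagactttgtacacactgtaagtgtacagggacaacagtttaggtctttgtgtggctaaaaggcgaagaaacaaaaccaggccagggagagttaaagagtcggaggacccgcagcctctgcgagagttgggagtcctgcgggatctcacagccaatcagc
Cox6b1: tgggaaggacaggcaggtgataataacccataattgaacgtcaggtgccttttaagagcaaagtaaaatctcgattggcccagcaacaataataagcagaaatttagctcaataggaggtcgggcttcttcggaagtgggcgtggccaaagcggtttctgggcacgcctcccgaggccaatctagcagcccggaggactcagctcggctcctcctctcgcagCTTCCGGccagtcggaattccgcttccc
Cox6b2: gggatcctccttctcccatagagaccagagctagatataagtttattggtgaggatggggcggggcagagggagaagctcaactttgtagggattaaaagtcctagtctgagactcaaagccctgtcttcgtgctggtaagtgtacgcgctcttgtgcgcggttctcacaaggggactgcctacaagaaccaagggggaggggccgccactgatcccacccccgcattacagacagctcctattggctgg
RefSeq promoters were matched for 34 of the 42 somatic genes (38 promoters), for 3 of the 4 testis forms and for 2 of the 4 heart or lung forms. An NRF1 match was found in 7 somatic promoters (18.4%) against 3.74% of 32851 promoters of all genes. ETS matches were in 9 somatic promoters (23.7%) against 6.91% of all, and CRE matches in 2 (5.26%) against 1.55% of all. None of the 3 testis promoters held one of these motifs. The median number of CpG dinucleotides was 15 in somatic promoters and 8 in testis promoters, against 6 in all promoters. Not every pair differed in this way. The promoters of Cox7b and its testis form Cox7b2, a pair not shown, both held none of the motifs, with 5 and 9 CpG dinucleotides. The somatic Cox8a promoter also held none. These matches describe the letters of the window and are not evidence of binding.

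The deposited counts summed to 6849448, 3481865, 6975180 and 5948251 in ethanol replicates 1 to 4, and to 4529439, 4365887, 4503011 and 4921827 in control replicates 1 to 4. Levels are given as CPM, the counts scaled to a common library size with TMM factors. Pearson correlations of log2 CPM over the tested features were 0.699 to 0.828 for ethanol replicate 2 with the rest of its group. They were 0.907 to 0.934 among the other ethanol libraries and 0.917 to 0.948 among controls, so ethanol replicate 2 stood apart. Fragments of mRNA exons took 29.3% of all counts in that library and 6.94 to 9.73% in the other ethanol libraries, against 5.08 to 5.81% in control libraries. The 14 sperm and spermatid markers, such as Prm1 and Prm2 (protamines) and Akap4 (a sheath protein of the tail), were all tested, which fits the label in so far as these transcripts were present. Their summed level was 254 to 716 CPM in ethanol and 654 to 837 CPM in control libraries.

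Fragments of the nuclear genes of complexes II to V were higher in ethanol sperm. The fit with edgeR's quasi-likelihood test covered 13515 features, of which 42 were genes described here. At an adjusted p under 0.05 (Benjamini-Hochberg over all 13515), 37 of these 42 were higher in ethanol, 0 were lower and 5 did not pass. Among all tested features 11.9% were higher and 1.75% lower, and among tested mRNA exon features 23.8% were higher and 0.153% lower. The median log2 fold change of ethanol over control was 2.05 over the 42 tested genes, with a range of 0.16 to 2.996, against 0.88 over 6545 mRNA exon features and -0.01 over all tested features. Every ethanol library lay above every control library in CPM for 31 of the 50 genes, all of them somatic forms, and 0 genes lay entirely below, against 13.7% above and 1.3% below among all mRNA exon features with a count.

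The 8 genes not tested for low counts were Atp5s, Cox4i2, Cox6a2, Cox6b2, Cox7a1, Cox7b2, Cox8b and Cyct. Of the 42 tested genes 23 had fewer than 4 control libraries at or above about 2.23 CPM after TMM scaling, and 3 had none. This level stands in for the filter's own, which was set on library sizes before TMM scaling, so both numbers are approximate. Such genes passed with the help of the ethanol libraries, and their count alone cannot be read as a difference. Fitted with no filter, 40 of all 50 genes were higher and 0 lower, with a median of 1.93, where 15.1% of mRNA exon features were higher and 0.244% lower.

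These calls depended on all 4 control libraries: without any single one of them edgeR called 0 of the 42. In these edgeR fits 40 of the 42 had an unadjusted p under 0.05 each time. So did 3440 to 4354 of all features, with 14861 to 15109 tested. DESeq2 on all 8 libraries called 40 of the 42, and 3144 of all 13515 features. With limma-voom the count was 0 (39 at an unadjusted p under 0.05, smallest adjusted p 0.0569). By the same test 4435 of all 13515 features had an unadjusted p under 0.05. With mRNA exon features alone in the edgeR fit the count was also 0, with a median log2 fold change of 1.06. There 31 of the 42 had an unadjusted p under 0.05, as did 1995 of all 6965 features. Without ethanol replicate 2, edgeR called 28 and the median was 1.37, and without ethanol replicates 1 and 2, whose sample codes share a style, it called 21 with a median of 1.35. Of all features, 1372 of 14384 were called in the first of these fits and 816 of 14940 in the second. In bulk samples such as these, a different number of cells of a type and a different amount of RNA per cell cannot be told apart.

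**Figure D1:**
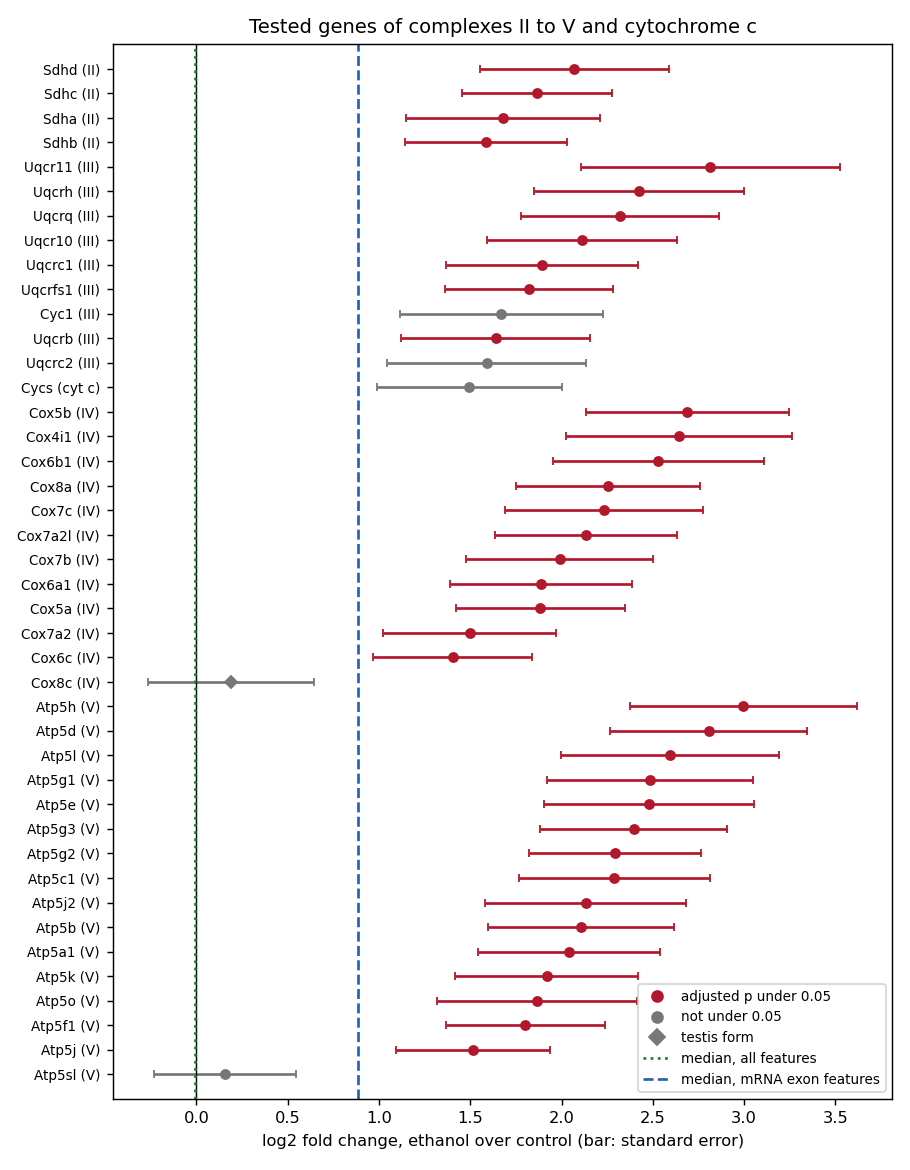
Log2 fold change (ethanol over control, horizontal axis) of the 42 tested genes, grouped by complex down the page, with bars for the standard error and vertical lines for the medians of all features and of mRNA exon features. The points run between 0.16 and 2.996, and Cox8c and Atp5sl lie nearest to 0.

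Complex II was higher as a whole: all 4 of its subunits rose, with a median log2 fold change of 1.77. Sdhc, one of its membrane anchors, had 6.03, 15.8, 7.37 and 11.5 CPM in ethanol replicates 1 to 4, against 2.30, 2.53, 2.20 and 4.08 CPM in control replicates 1 to 4. The groups did not overlap, and the log2 fold change was 1.86 ± 0.41 (estimate ± SE, edgeR adjusted p = 0.0287). Sdhd, the other membrane anchor, had 4.16, 15.01, 4.42 and 6.09 CPM in ethanol libraries, against 0.768, 2.28, 1.46 and 2.45 CPM in control libraries. Again no ethanol library fell within the control range (2.07 ± 0.52, edgeR adjusted p = 0.0291).

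The other pair of complex II subunits rose with overlapping groups. Sdhb, the iron-sulfur subunit, had 4.88, 8.84, 2.76 and 6.76 CPM in ethanol libraries, against 1.54, 1.52, 2.93 and 1.63 CPM in control libraries. Ethanol replicate 3 lay below control replicate 3, the single overlap, and the log2 fold change was 1.59 ± 0.44 (edgeR adjusted p = 0.0342). Without ethanol replicate 2 or without ethanol replicate 4 the call for Sdhb was lost, with edgeR adjusted p = 0.0543 and 0.0809. Sdha, the catalytic flavoprotein, had 16.7, 68.1, 10.5 and 22.8 CPM in ethanol libraries, against 5.89, 12.4, 7.08 and 11.4 CPM in control libraries. Its ethanol replicate 3 lay within the control range, its ethanol replicate 2 far above all others, and the call was close to the threshold (1.68 ± 0.53, edgeR adjusted p = 0.0488). The call for Sdha was lost without ethanol replicate 2 (log2 fold change 0.81, edgeR adjusted p = 0.104), without ethanol replicate 4 (adjusted p = 0.0751), with DESeq2 size factors in edgeR (0.0652) and with library totals (0.0521).

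In complex III 7 of 9 genes rose, with a median of 1.89 over the 9, and in 6 of the 9 the groups did not overlap. The smallest p-values belonged to small accessory subunits. Uqcrq, a small subunit linked to ubiquinone binding, had 8.19, 36.2, 7.37 and 8.96 CPM in ethanol libraries, against 3.33, 1.77, 3.91 and 2.99 CPM in control libraries. Ethanol replicate 2 was far above the others, and the remaining 3 ethanol libraries also lay above all controls (2.32 ± 0.54, edgeR adjusted p = 0.0287). Uqcrh, the hinge protein that bridges cytochrome c and cytochrome c1, had 6.75, 32.1, 5.71 and 8.12 CPM in ethanol libraries, against 2.05, 1.52, 3.91 and 2.18 CPM in control libraries. Ethanol replicate 2 was again the highest library, and the groups did not overlap (2.42 ± 0.58, edgeR adjusted p = 0.0287).

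Uqcr10, a small membrane subunit, had 4.45, 14.6, 3.50 and 4.57 CPM in ethanol libraries, against 1.02, 1.52, 1.95 and 1.63 CPM in control libraries, again without overlap (2.11 ± 0.52, edgeR adjusted p = 0.0287). Uqcr11, another small subunit, had the highest mean of the complex, and its fragments were at 9.62, 41.3, 3.50 and 10.1 CPM in ethanol libraries, against 0.512, 2.78, 1.46 and 4.35 CPM in control libraries. Ethanol replicate 3 lay below control replicate 4, and the change was the largest of the complex with the widest error (2.82 ± 0.71, edgeR adjusted p = 0.0292). Uqcrfs1 (the Rieske iron-sulfur protein), Uqcrc1 (a core protein) and Uqcrb rose by 1.82 ± 0.46, 1.89 ± 0.52 and 1.64 ± 0.52 on the log2 scale, with edgeR adjusted p-values of 0.0292, 0.0337 and 0.0482. Cyc1, the cytochrome c1 subunit, and Uqcrc2, the other core protein, did not pass, with log2 fold changes of 1.67 ± 0.55 and 1.59 ± 0.55 (edgeR adjusted p = 0.0571 and 0.0626). In both, ethanol replicate 3 lay within or below the control range, at 1.84 CPM for Cyc1 and 3.13 CPM for Uqcrc2.

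In the edgeR fit Cycs did not pass and the testis form Cyct was too low for the test. Cycs, the somatic form, had 7.76, 21.6, 3.87 and 6.76 CPM in ethanol libraries, against 2.30, 5.31, 3.42 and 2.99 CPM in control libraries. Control replicate 2 lay above ethanol replicate 3, and the log2 fold change was 1.495 ± 0.504 (edgeR adjusted p = 0.0593). Some other settings called Cycs higher: its adjusted p was 0.0250 with the DESeq2 Wald test and 0.0130 in edgeR with no filter. Others did not, and the change was smaller without ethanol replicate 2 (log2 fold change 0.75, edgeR adjusted p = 0.184). With mRNA exon features alone it was 0.51 (edgeR adjusted p = 0.354), and limma-voom gave an adjusted p of 0.112. The testis form Cyct had 6, 0, 8 and 2 counts in ethanol replicates 1 to 4, against 1, 0, 0 and 1 counts in control replicates 1 to 4. Pooled over libraries the ratio of CPM was 5.40, with a 95% exact binomial interval of 1.27 to 48.4 that covers counting error only. Cyct was listed at 0 in ethanol replicate 2, the library where Cycs was highest, and in 2 control libraries.

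In complex IV 11 of 12 tested genes rose, with a median of 2.06, and in the same 11 the groups did not overlap. All 11 were somatic or widely expressed forms. Cox5b, which sits on the matrix side of the enzyme, had 10.2, 31.7, 5.89 and 10.99 CPM in ethanol libraries, against 0.768, 2.28, 2.44 and 3.54 CPM in control libraries. Its ethanol libraries all exceeded the highest control (2.69 ± 0.56, edgeR adjusted p = 0.0287). Cox4i1, the regulatory subunit that binds ATP, had 36.9, 155, 19.9 and 29.9 CPM in ethanol libraries, against 7.17, 6.57, 8.05 and 16.9 CPM in control libraries. It had the highest mean of the complex, and ethanol replicate 2 and control replicate 4 each stood apart from the rest of their group (2.64 ± 0.62, edgeR adjusted p = 0.0287). The other genes called in this complex were Cox5a, Cox6a1, Cox6c, Cox7a2, Cox7a2l and Cox7c, besides the 3 somatic forms of the pairs below. Their log2 fold changes lay between 1.40 ± 0.44 for Cox6c and 2.23 ± 0.54 for Cox7c, and the largest edgeR adjusted p among them was 0.0482, that of Cox7a2.

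The testis forms of complex IV overlapped between the groups, and each of their somatic counterparts rose. Cox6b2, the testis form of a subunit on the intermembrane side, had 0.718, 0.823, 2.39 and 1.52 CPM in ethanol libraries, from 5, 4, 13 and 9 counts. In control libraries Cox6b2 had 2.30, 1.01, 3.17 and 0.816 CPM, from 9, 4, 13 and 3 counts. The groups overlapped throughout, and too few counts were present for a test. Cox6b1, the somatic form, had 8.19, 29.8, 5.16 and 9.64 CPM in ethanol libraries, against 1.02, 1.52, 2.44 and 4.08 CPM in control libraries, without overlap (2.53 ± 0.58, edgeR adjusted p = 0.0287). The mean log2 ratio of Cox6b2 over Cox6b1 (pseudocount 0.5 counts) was -3.02 ± 1.64 in ethanol and -0.31 ± 1.39 in control libraries (SD, n = 4 each).

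This difference of -2.71 did not pass (two-sided exact permutation p = 0.0571 over 70 assignments, 0.171 adjusted over 3 pairs, where 0.0286 is the smallest unadjusted p the design allows). Control replicate 4, at -2.15, lay below ethanol replicate 3, at -1.08. Without ethanol replicate 2 the difference in this ratio was -2.04.

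Cox7b2, the testis form of another small subunit, had 15, 2, 15 and 3 counts in ethanol libraries, against 1, 8, 9 and 4 counts in control libraries. No direction was visible at this depth. Cox7b, its somatic form, had 6.61, 22.6, 4.79 and 7.44 CPM in ethanol libraries, against 2.56, 2.78, 1.46 and 3.54 CPM in control libraries (1.99 ± 0.51, edgeR adjusted p = 0.0299). The log2 ratio of the pair was -2.87 ± 2.12 in ethanol and -1.07 ± 1.45 in control libraries (SD, n = 4 each). Its difference of -1.80 did not pass (exact permutation p = 0.2, adjusted p = 0.2), and without ethanol replicate 2 it was -0.94.

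Cox8c, the testis form of a small membrane subunit, was the single testis form with enough counts for the fit. It had 5.31, 2.26, 9.58 and 3.89 CPM in ethanol libraries, against 5.63, 2.28, 4.88 and 5.71 CPM in control libraries. The ethanol libraries lay on both sides of the controls, and the log2 fold change was 0.19 ± 0.45 (edgeR adjusted p = 0.796), with a sign that changed under other settings. Cox8a, the somatic form, had 19.96, 61.7, 14 and 33.5 CPM in ethanol libraries, against 2.82, 8.85, 6.59 and 8.70 CPM in control libraries, without overlap (2.25 ± 0.51, edgeR adjusted p = 0.0287). The log2 ratio of Cox8c over Cox8a was -2.56 ± 1.77 in ethanol and -0.49 ± 1.17 in control libraries (SD, n = 4 each). Its difference of -2.07 did not pass either (exact permutation p = 0.143, adjusted p = 0.2), and without ethanol replicate 2 it was -1.35. A different response of testis and somatic forms was therefore not shown by these tests, with 4 libraries in each group.

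**Figure D2:**
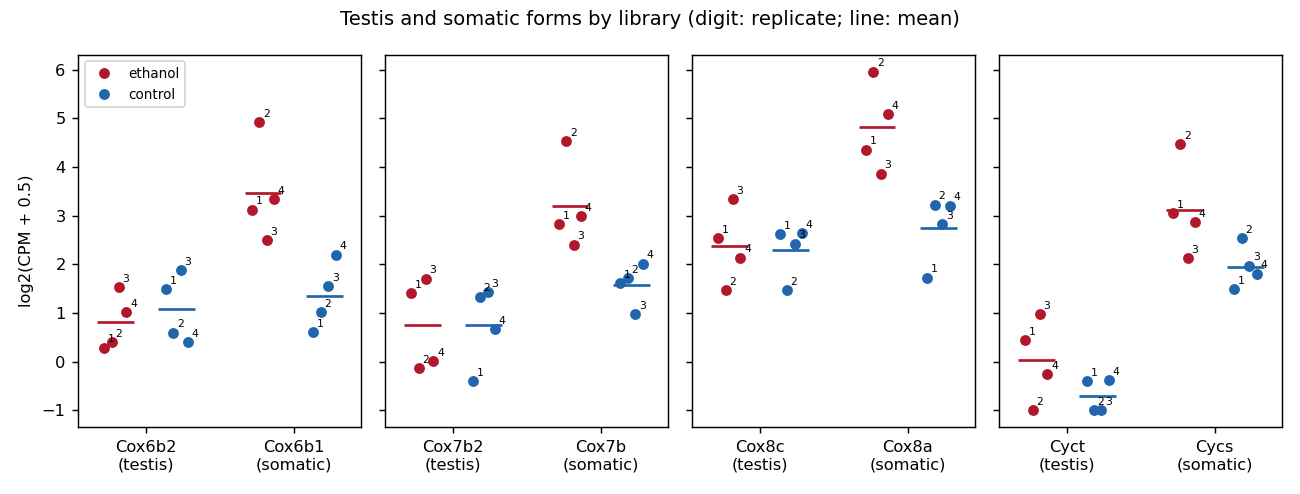
Level of each testis form and its somatic counterpart, as log2(CPM + 0.5) on the vertical axis, for ethanol and control libraries; digits are replicate numbers and lines are group means. Somatic forms lie higher in ethanol libraries, and the points of Cox6b2, Cox7b2 and Cox8c overlap between groups.

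The heart or lung forms were close to undetected. Cox7a1 had 7 counts over the ethanol libraries and 2 over the control libraries, a pooled CPM ratio of 2.36 with a 95% exact binomial interval of 0.450 to 23.3. Cox4i2 had 3 counts in ethanol and 1 in control, Cox6a2 1 in ethanol and 3 in control, and Cox8b 1 in each group. No difference was detectable at this depth.

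In complex V 15 of 16 tested genes rose, with a median of 2.21, and in 12 of the 17 genes the groups did not overlap. Atp5d, the delta subunit of the central stalk, had 13.4, 43.6, 7.74 and 18.3 CPM in ethanol libraries, against 1.54, 4.80, 2.68 and 2.72 CPM in control libraries. All ethanol libraries lay above the highest control (2.80 ± 0.54, edgeR adjusted p = 0.0287). Atp5g2, 1 of 3 genes for the c subunit that forms the membrane ring, had 7.76, 22.0, 6.45 and 8.46 CPM in ethanol libraries, against 1.28, 2.53, 2.20 and 2.99 CPM in control libraries. Apart from ethanol replicate 2 its ethanol libraries were close to each other and above all controls (2.29 ± 0.47, edgeR adjusted p = 0.0287).

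Atp5h, the d subunit of the peripheral stalk, had 12.6, 55.7, 6.45 and 13.9 CPM in ethanol libraries, against 1.28, 2.78, 3.66 and 3.26 CPM in control libraries. Its log2 fold change of 2.996 ± 0.622 was the largest among the 42 tested genes (edgeR adjusted p = 0.0287) and was 1.94 without ethanol replicate 2. Atp5b, the catalytic beta subunit, had the highest mean of all 50 genes, with 39.4, 144, 33.7 and 61.9 CPM in ethanol libraries, against 10.5, 20.2, 11.2 and 22.8 CPM in control libraries. No groups overlapped there either (2.11 ± 0.51, edgeR adjusted p = 0.0287).

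Genes for the catalytic head, both stalks and the membrane part of the ATP synthase were among those that rose. In the catalytic head and central stalk they were Atp5a1 (alpha, 2.04 ± 0.50), Atp5c1 (gamma, 2.29 ± 0.52) and Atp5e (epsilon, 2.48 ± 0.58), each with an edgeR adjusted p of 0.0287. In the peripheral stalk Atp5f1 (b), Atp5j (F6) and Atp5o (the oligomycin sensitivity protein) rose by 1.80 ± 0.44, 1.52 ± 0.42 and 1.87 ± 0.55 on the log2 scale. In the membrane part the other c-subunit genes Atp5g1 and Atp5g3 rose by 2.48 ± 0.56 and 2.396 ± 0.513, and Atp5j2, Atp5k and Atp5l (the f, e and g subunits) by 2.13 ± 0.55, 1.92 ± 0.50 and 2.59 ± 0.60. The largest edgeR adjusted p in the complex among these was 0.0396, that of Atp5o.

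Atp5sl and Atp5s were the genes named Atp5 that were not called. Atp5sl had 9.91, 6.38, 18.4 and 6.26 CPM in ethanol libraries, against 7.94, 8.60, 9.03 and 11.2 CPM in control libraries. Ethanol replicate 2, the highest library for most other genes, was among the lowest here, and the log2 fold change was 0.16 ± 0.39 (edgeR adjusted p = 0.802). Atp5s had 30 counts over the ethanol libraries and 13 over the control libraries, a pooled CPM ratio of 1.56 with a 95% exact binomial interval of 0.788 to 3.25, and was not tested.

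The makeup of the fragments by complex was alike in the groups while their total share differed. The 50 genes took 0.559, 0.749, 0.404 and 0.553% of mRNA exon counts in ethanol replicates 1 to 4, against 0.233, 0.288, 0.298 and 0.328% in control replicates 1 to 4. The means were 0.566% ± 0.141 in ethanol and 0.287% ± 0.0396 in control libraries (SD, n = 4 each), without overlap, and the largest half-width of a 95% Wilson interval was 0.0215 percentage points. Within mRNA exon counts, therefore, the share was 1.97 times as large in ethanol. Within all counts the shares were 0.0486, 0.219, 0.0281 and 0.0538% in ethanol libraries, against 0.0118, 0.0167, 0.0166 and 0.0181% in control libraries. Without ethanol replicate 2 the difference in means of that share was 0.0277 in place of 0.0716 percentage points.

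Complex V contributed 43.5% ± 0.942 of the fragments of the 50 genes in ethanol and 40.9% ± 3.37 in control libraries (SD, n = 4 each). Complex IV contributed 34.4% ± 1.43 in ethanol and 35.3% ± 3.96 in control, complex III 13.3% ± 1.59 in ethanol and 13.5% ± 1.51 in control, and complex II 7.29% ± 0.962 in ethanol and 8.34% ± 1.22 in control. Cytochrome c contributed 1.49% ± 0.218 in ethanol and 1.99% ± 0.637 in control libraries, and the ranges overlapped for cytochrome c and for each complex. Testis forms took 0.0106, 0.00167, 0.0182 and 0.00639% of mRNA exon counts in ethanol libraries, against 0.0143, 0.00828, 0.0167 and 0.0107% in control libraries. Ethanol replicate 2, with the highest share of somatic forms, had the lowest share of testis forms.

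**Figure D3:**
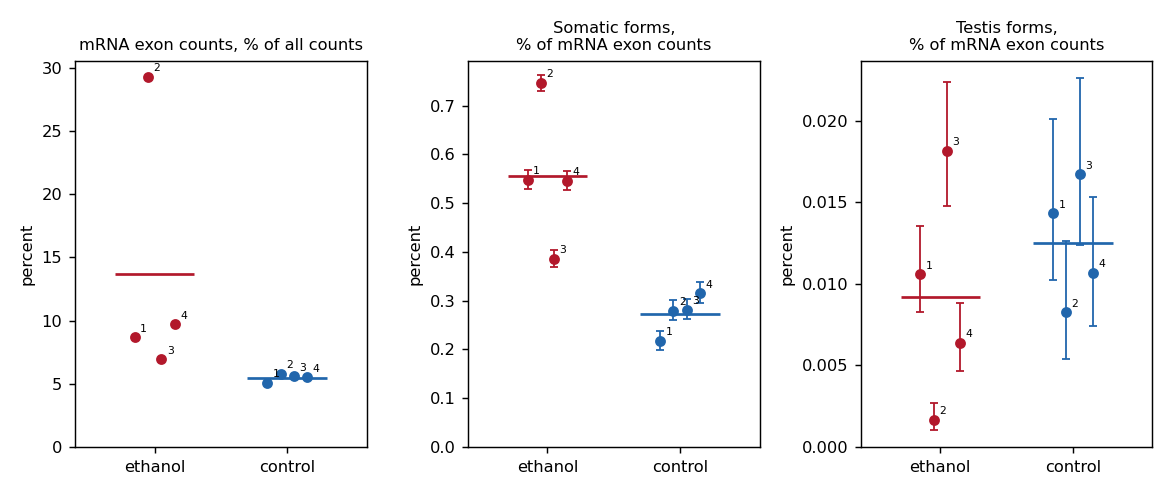
Percent of all counts in mRNA exons, and percent of mRNA exon counts in somatic and in testis forms, per library with 95% Wilson intervals and group means as lines. Somatic forms take 0.386 to 0.747% in ethanol and 0.218 to 0.316% in control libraries, and testis forms overlap.

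Intron fragments of the same genes were fewer than exon fragments, and a single intron, that of Atp5b, held 38.0% of them in ethanol and 57.6% in control libraries. Introns were present as features for 49 of the 50 genes, with 1519 counts in ethanol and 1378 in control libraries, and 3 had enough for the test. Summed intron levels were 69.1, 72.2, 74.6 and 47.7 CPM in ethanol libraries, against 89.6, 99.1, 78.4 and 85.7 CPM in control libraries, whereas summed exon levels were 478, 1571, 360 and 541 CPM in ethanol and 137, 185, 183 and 242 CPM in control libraries. Every ethanol library lay above every control library in the exon sum and below every control library in the intron sum, but the order in introns rested on Atp5b. Without the Atp5b intron, left out after its values were seen, the sums were 39.1, 50.4, 42.2 and 33.1 CPM in ethanol and 44.8, 42.2, 29.5 and 32.9 CPM in control libraries, and the groups overlapped. By edgeR 0 of the 3 introns passed (0.252% of all tested introns were higher and 1.88% lower), with 1 higher and 1 lower at an unadjusted p under 0.05, while DESeq2 called 1 lower and limma-voom called 0. The log2 fold changes were -1.04 ± 0.37 for the Atp5b intron (edgeR adjusted p = 0.0704), 0.14 ± 0.36 for Cox7c (adjusted p = 0.812) and 0.91 ± 0.42 for Sdha (adjusted p = 0.147).

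The spread of fragments over exons differed between genes. Of the 263 exon rows of these genes 260 held counts in ethanol and 239 in control libraries. For the 42 genes with at least 100 counts, the row with the most counts held a median of 46.8% of the gene's counts in ethanol and 45.9% in control libraries. That share ran from 14.2% for Atp5b to 85.8% for Cox7a2l in ethanol and from 19.5% for Atp5b to 89.2% for Cox7a2l in control libraries. Many of these genes have processed pseudogenes elsewhere in the genome, and the sources used here do not state how multiply aligned reads were counted, so fragments of near-identical copies cannot be told apart.

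None of the subunits of complexes III, IV and V encoded in the mitochondrial genome was called by edgeR. COX1, the catalytic subunit of complex IV, averaged 476 ± 108 CPM in ethanol and 851 ± 297 CPM in control libraries (SD, n = 4 each), and its difference did not pass (log2 fold change -0.84 ± 0.43, edgeR adjusted p = 0.186). COX2 and COX3, the other subunits of its core, had log2 fold changes of -0.46 ± 0.48 and -0.68 ± 0.45, CYTB of complex III had -0.47 ± 0.47, and ATP6 and ATP8 of complex V had -0.48 ± 0.48 and -0.25 ± 0.52. Over the 13 protein genes of the mitochondrial genome edgeR, DESeq2 and limma-voom called 0, and the edgeR median was -0.41. At an unadjusted p under 0.05 there were 0 in edgeR, 1 lower in DESeq2 and 0 in limma-voom. Summed levels were 1915 to 2094 CPM in ethanol and 1375 to 4377 CPM in control libraries, so the control libraries spanned the ethanol range.

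Genes named for nuclear subunits of complex I (Nduf names) were also higher in ethanol sperm. The choice was again by name, so a name such as Ndufa4 does not by itself make a gene a subunit of complex I. Of 37 genes 24 were tested by edgeR, 17 were higher and 0 lower, where 23.8% of mRNA exon features were higher, and the median was 2.03. Some of those called, such as Ndufa10, Ndufc2 and Ndufs5, had no control library at the TMM-scaled level of about 2.23 CPM. They passed the filter through the ethanol libraries, so the count alone cannot be read as a difference. Without ethanol replicate 2 edgeR called 12 of the 37 genes with a median of 1.21, and limma-voom called 0, with 20 higher at an unadjusted p under 0.05. Summed levels of the 37 genes were 188, 661, 135 and 199 CPM in ethanol libraries, against 145, 120, 84.5 and 91.4 CPM in control libraries, and ethanol replicate 3 lay below control replicate 1. Ndufv2, a subunit of the electron input module that went against the others, had 5.89, 19.3, 5.16 and 5.75 CPM in ethanol and 90.4, 49.6, 8.05 and 4.62 CPM in control libraries (log2 fold change -2.08 ± 0.79, edgeR unadjusted p = 0.0193, adjusted p = 0.0872). Without Ndufv2, left out after its values were seen, the sums were 182, 641, 129.7 and 193.5 CPM in ethanol and 54.3, 70.8, 76.4 and 86.8 CPM in control libraries, without overlap.

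Among 61 partner genes of complexes II to V 24 were tested by edgeR, 12 were higher, 0 lower and 12 did not pass, with a median of 1.597. Of tested mRNA exon features 23.8% were higher and 0.153% lower, with a median of 0.88. With limma-voom 0 partner genes were called. Some of those called by edgeR, such as Slc25a4 and Usmg5, had no control library at the TMM-scaled level of about 2.23 CPM. Such genes passed the filter through the ethanol libraries, so the counts of partner genes called cannot alone be read as a difference. The carriers and pores that supply the ATP synthase held the most calls: all 6 tested of 8 were higher. Slc25a5, an ADP/ATP carrier, averaged 27.1 ± 29.4 CPM in ethanol and 4.65 ± 1.42 CPM in control libraries (SD, n = 4 each; log2 fold change 2.54 ± 0.61, edgeR adjusted p = 0.0287). Vdac1 and Vdac2, pores of the outer membrane, rose by 1.94 ± 0.48 and 1.82 ± 0.45 on the log2 scale (edgeR adjusted p = 0.0287 and 0.0288). Slc25a31, the ADP/ATP carrier of the male germ line, had 11 counts in ethanol and 8 in control libraries and was not tested; it is named here after its values were seen.

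Genes tied directly to complex V rose in 2 of 4 tested cases. Usmg5, a small protein of the ATP synthase, rose by 2.45 ± 0.61 and Atpif1, an inhibitor of its ATP hydrolysis, by 2.05 ± 0.53 (edgeR adjusted p = 0.0287 and 0.0303), whereas Atpaf2, an assembly factor, had 0.33 ± 0.38 (adjusted p = 0.550). Of the 8 genes for cristae, cardiolipin and prohibitins 6 were tested and 3 rose, namely Immt (1.61 ± 0.44), Phb2 (2.05 ± 0.62) and Phb (1.59 ± 0.50), with edgeR adjusted p-values of 0.0328, 0.0436 and 0.0484. Without ethanol replicate 2, edgeR called 0 of these 6, with 5 at an unadjusted p under 0.05, and 7 partner genes in all.

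Assembly factors were mostly too low for a test. Of 24 for complex IV 4 were tested, and Coa3, which acts early on COX1, rose by 2.13 ± 0.58 (edgeR adjusted p = 0.0328). Cox15, of heme A synthesis, had 1.29 ± 0.43 (adjusted p = 0.0573) and Coa5 had 0.69 ± 0.35 (adjusted p = 0.188), and neither passed. For complex II 1 of 4 was tested, Sdhaf2, which helps to attach the flavin of Sdha, with 1.604 ± 0.518 (adjusted p = 0.0519), and for complex III 0 of 6. Among 6 regulators of mitochondrial genes, Gabpa, Esrra and Tfam were tested, with log2 fold changes of 0.96 ± 0.45, 0.91 ± 0.44 and 0.28 ± 0.39. By edgeR 0 of the 3 passed, with 0 at an unadjusted p under 0.05. DESeq2 and limma-voom also called 0, with 2 and 1 higher at an unadjusted p under 0.05.

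Of the markers of other cells that a sperm preparation can hold, those of epididymal epithelium were higher in ethanol libraries. The 25 epididymal epithelium markers summed to 3304, 14900, 1128 and 1663 CPM in ethanol libraries, against 486, 635, 975 and 837 CPM in control libraries, and ethanol replicate 2 was highest both in this sum and in that of the 50 genes. Of these markers 10 were tested by edgeR and 8 were higher, with a median of 2.58. Among tested mRNA exon features 23.8% were higher, with a median of 0.88. For the same 10 markers DESeq2 called 6 higher and limma-voom 0, with 10 at an unadjusted p under 0.05 in limma-voom. Without ethanol replicate 2 edgeR called 7 of them higher, with a median of 1.49. Crisp1, a secreted protein of the epididymis, held 65.2% of the list's counts in ethanol and 64.7% in control libraries. Defb41 had 1 count over the ethanol libraries and 0 over the control libraries, too few to compare. The 14 sperm and spermatid markers had a median log2 fold change of -0.52; edgeR called 0 of them, with 2 lower at an unadjusted p under 0.05, DESeq2 called 2 lower and limma-voom 0.

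White blood cell markers summed to 180 to 2653 CPM in ethanol and 69.3 to 100.9 CPM in control libraries. Cd52, which is also made by epididymal epithelium, held 97.8% of that sum in ethanol and 79.3% in control, and the other 9 markers summed to 9.03 to 29.4 CPM in ethanol and 12.8 to 23.3 CPM in control libraries. Red blood cell markers were at 2.58 to 19.4 CPM in ethanol and 18.7 to 36.9 CPM in control libraries, and muscle markers at 18.1 to 55.5 CPM in ethanol and 25.4 to 134 CPM in control libraries. Of 4 tested red blood cell genes edgeR called 2 lower, where 1.75% of all tested features and 0.153% of mRNA exon features were lower. DESeq2 called 4 of them lower and limma-voom 0, and all 4 were lower at an unadjusted p under 0.05 in each tool. Of 6 tested muscle genes edgeR called 0, with 0 at an unadjusted p under 0.05. DESeq2 and limma-voom also called 0, with 1 lower at an unadjusted p under 0.05 in DESeq2. The part of these cells in the levels of the 50 genes was not tested.

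**Figure D4:**
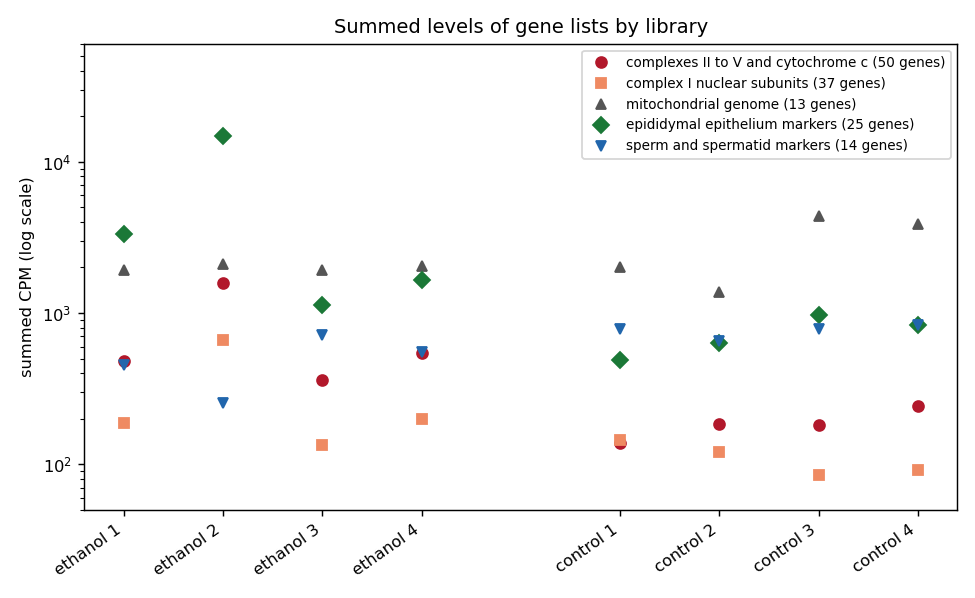
Summed CPM of 5 gene lists in each library, on a log scale. The 50 genes of complexes II to V and cytochrome c (360 to 1571 CPM in ethanol, 137 to 242 CPM in control libraries) and the epididymal markers both peak in ethanol replicate 2, where the sperm and spermatid markers are lowest at 254 CPM.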

How the data were processed

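Small RNA of 8 mouse sperm samples, 4 ethanol and 4 control, was compared; titles give the groups and replicate numbers. Trizol extraction and Qiaseq library reagents were used, per the labels' protocols. The authors deposited raw counts in 1 table of 1078961 rows, with no normalization recorded. The genome build, the aligner, the counting rule and whether reads or molecules were counted are not given in the sources used here. Counts were summed per name and type, each piRNA cluster was represented by its largest transcript, and 45090 features resulted; 278 exon rows that name more than 1 gene kept their joint name, and none of them is among the genes described.

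All features were fitted together with edgeR 4.0.16 under R 4.3.3, using a robust quasi-likelihood test with group as the sole covariate, TMM scaling and filterByExpr at a minimum count of 10. Adjustment was by Benjamini-Hochberg with a threshold of 0.05. The standard error is the absolute log2 fold change divided by the square root of F. The fit was tested on simulated counts. Libraries within a group differed by more than sampling noise (chi-square over its degrees of freedom 11.6 to 188), and each was kept as a replicate. Ratios of testis to somatic counts, with a pseudocount of 0.5, were compared where both genes had at least 20 counts, by an exact permutation test (two-sided); intervals cover counting error only. Alternatives were limma-voom (limma 3.58.1), DESeq2 1.42.0, other scalings and filters, the replicate number as a block and libraries left out. Python 3.11.15 with scipy 1.17.1 and matplotlib 3.10.9 was used for the rest. All 68 transcript accessions of the genes matched RefSeq, 56 with the same version, and RefSeq gives 3 of the genes another symbol. Promoters are RefSeq's for GRCm38.p6.

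Values per library were given, by rule, for the testis forms and their somatic counterparts and, in each complex, for the 3 tested genes with the smallest p and the 1 with the highest mean CPM; of partner genes, up to 3 with the smallest p in each group were named. The genes and lists were chosen with earlier results of these data known.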

Additional observations from a re-analysis of the deposited data

Results flagged for a closer look

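Among 58 groups of 4 values examined (22 genes and several shares, in each treatment group), 11 had 1 library far from the other 3, by Dixon's criterion at the 95% level, which chance alone meets in about 1 of 20 groups. Ethanol replicate 2 stood above the other ethanol libraries for 7 genes: Cox4i1 had 155 CPM there against 19.9 to 36.9 CPM in the others, Atp5h 55.7 against 6.45 to 13.9 CPM, and Uqcrq 36.2 against 7.37 to 8.96 CPM. Uqcrh had 32.1 CPM there against 5.71 to 8.12 CPM, Cox7b 22.6 against 4.79 to 7.44 CPM, Atp5g2 22.0 against 6.45 to 8.46 CPM, and Uqcr10 14.6 against 3.50 to 4.57 CPM. The same library held 0.219% of all its counts in the 50 genes, against 0.0281 to 0.0538% in the other ethanol libraries, and 29.3% in mRNA exons, against 6.94 to 9.73%. Among control libraries, Cox4i1 was at 16.9 CPM in replicate 4 against 6.57 to 8.05 CPM in the others, and Sdhb at 2.93 CPM in replicate 3 against 1.52 to 1.63 CPM.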

How the results depend on the processing

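Of the 37 genes called, all 37 kept a positive log2 fold change under every alternative of the fit across features in which they were tested (26 were tested with a minimum count of 20), but the calls themselves depended on the setting. The number of the 50 genes called was 0 with limma-voom, 0 with mRNA exon features alone, 21 without ethanol replicates 1 and 2, and 0 to 40 with 1 library left out. It was between 26 and 40 under the other alternatives. Features called in all numbered 1841, and 1200 with DESeq2 size factors, 3144 with the DESeq2 Wald test, 8 with limma-voom, 3451 with no filter, 1211 with a minimum count of 20, 0 with mRNA exon features alone, 816 without ethanol replicates 1 and 2, 3320 without ethanol replicates 3 and 4, and 3 to 3575 with 1 library left out. In the mRNA exon fit 1995 features had an unadjusted p under 0.05. Partner genes called numbered 12, and 0 with limma-voom, 23 with no filter, 7 with a minimum count of 20, 0 with mRNA exon features alone, 3 without ethanol replicates 1 and 2, 19 without ethanol replicates 3 and 4, and 0 to 19 with 1 library left out. The cause was not tested.

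The log2 fold change of Cox8c lay between -0.36 and 0.36 with 1 library left out, and its sign changed, to -0.47 with mRNA exon features alone, -0.36 without ethanol replicate 3, -0.12 without control replicate 2 and -0.39 without ethanol replicates 3 and 4. Library totals in place of TMM moved the median of all features to 0.24 and that of the tested genes to 2.499. With the replicate number as a block, 3298 features and 40 of the genes were called; same-numbered libraries deviated together at correlations of 0.358, 0.215, -0.137 and -0.0245, and 3 of 8 libraries correlated best with their own number, so the numbers were not taken to pair the samples. The ratios of testis to somatic forms passed under no alternative, but several alternatives could not have passed. With 1 library left out the exact permutation test cannot go below p = 0.0571, whatever the ratios are. Sign flips within replicate numbers, which cannot go below p = 0.125, gave exact adjusted p-values of 0.188, 0.25 and 0.188 for Cox6b2, Cox7b2 and Cox8c. With 1 library left out their differences ran from -3.36 to -2.04, -2.50 to -0.94 and -2.74 to -1.35, those of the share of mRNA exon counts from 0.219 to 0.334 and those of the share of all counts from 0.0277 to 0.0915 percentage points. Depth limits the testis, heart and lung forms most, since their counts per library were mostly under 20.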
